A study of Mus musculus with 2 samples.

Results

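Paired receptors of myeloid cells were described across the cell types of the mouse colon lamina propria, as the UMIs (unique molecular identifiers, 1 for each captured RNA molecule) of 8 genes among 31053 features. The genes were Cd300a, Cd300lf, Cd300e and Cd300lb of the CD300 family, Sirpa and Sirpb1c of the SIRP family, Pirb and Pilra. They were chosen by symbol from earlier results on these same levels, so that levels and genotype ratios are given as descriptions with no test. Single-cell libraries (10x Genomics 3' chemistry) had been made from colon cells labelled cd11b+, 1 from WT mice and 1 from mice labelled LncRNA17Rik knockout (KO), which the study calls lncLy6c KO. The study made this line by CRISPR-Cas9 deletion on a C57BL/6J background, and the mice were males of 8 weeks whose cells had been pooled. No feature symbol equals either name of the deleted gene (0 matches), so that the genotype label was not checked against its own gene here.

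Paired receptors are families of closely related surface proteins in which some members inhibit and others activate the same kind of cell. The inhibitory members carry a long cytoplasmic tail with tyrosine motifs that recruit phosphatases such as SHP-1 (encoded by Ptpn6). The activating members have a short tail and signal through an adaptor such as DAP12 (encoded by Tyrobp). In myeloid cells these receptors are known to set the threshold for phagocytosis, degranulation and cytokine release.

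Of the 8 genes, 5 encode inhibitory receptors. Cd300a (ENSMUSG00000034652, GRCm38 chr11:114890041-114904654) and Cd300lf (ENSMUSG00000047798, chr11:115116214-115133992) encode receptors for phospholipids of dying cells, and the Cd300lf product is also the receptor of murine norovirus. Sirpa (ENSMUSG00000037902, chr2:129592835-129632228) encodes the receptor for the "do not eat me" protein CD47. Pirb (ENSMUSG00000058818, chr7:3711409-3720391) encodes a receptor for MHC class I, and Pilra (ENSMUSG00000046245, chr5:137821952-137836281) a receptor for sialylated proteins. The activating 3 were Cd300e (ENSMUSG00000048498, chr11:115051917-115062177), known from non-classical monocytes, Cd300lb (ENSMUSG00000063193, chr11:114922781-114934386) and Sirpb1c (ENSMUSG00000074677, chr3:15795145-15848528). All 8 are annotated as protein coding, Cd300a and Sirpa on the plus strand and the others on the minus strand, and the 4 CD300 genes lie in the same part of chromosome 11. Reads of this chemistry come from the 3' end of the transcript. Of the 90-base stretches in the last 500 bases, 14.6% for Sirpb1c were shared with Sirpb1b and none for the other 7 genes, so the Sirpb1c level is less certain than the others.

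Promoters were available for 7 of the 8 genes (RefSeq, GRCm38.p6, 250 bases before to 50 bases after the gene start). The letters GAGGAA, the core of the motif of the myeloid ETS factor PU.1, were found on either strand in 4 of 7, compared with 28.3% of 32851 promoters of the same length. The match lay 39 bases upstream of the start in Cd300a, 43 bases upstream and at the start in Cd300lf, 185, 120 and 87 bases upstream in Pirb, and 211 bases upstream in Pilra. No GAGGAA was present in the windows of Cd300e, Cd300lb and Sirpb1c. TTGCNNAA, the motif of C/EBP factors, was present in 2 of 7 (Cd300a and Pilra) compared with 10.8% of all, and TGANTCA, the motif of AP-1, in 0 of 7 compared with 7.81%. A match is a run of letters and not a measured binding site. Sirpb1c, without a GAGGAA match, was lower in KO resident macrophage-like (log2 ratio -1.49) and cDC2-like cells (-2.0). Pilra, with a match, had an interval that included 0 in resident macrophage-like cells. Whether a match goes with the KO to WT ratio was not tested. The windows below are those of Cd300a, Cd300lf and Pirb, inhibitory genes with a match that lay lower in KO resident macrophage-like and cDC2-like cells, followed by that of Cd300e, the member with the largest ratio in the other direction, each 5′ to 3′ on the strand of the gene with GAGGAA or its complement in capitals.
Cd300a, GRCm38.p6 chr11:114889791-114890090, plus strand: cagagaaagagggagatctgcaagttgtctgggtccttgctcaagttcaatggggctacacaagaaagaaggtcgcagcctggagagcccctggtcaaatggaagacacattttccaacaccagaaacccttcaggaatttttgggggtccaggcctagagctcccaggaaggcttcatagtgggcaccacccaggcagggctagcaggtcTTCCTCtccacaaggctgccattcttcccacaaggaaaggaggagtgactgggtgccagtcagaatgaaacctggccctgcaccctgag
Cd300lf, GRCm38.p6 chr11:115133943-115134242, minus strand: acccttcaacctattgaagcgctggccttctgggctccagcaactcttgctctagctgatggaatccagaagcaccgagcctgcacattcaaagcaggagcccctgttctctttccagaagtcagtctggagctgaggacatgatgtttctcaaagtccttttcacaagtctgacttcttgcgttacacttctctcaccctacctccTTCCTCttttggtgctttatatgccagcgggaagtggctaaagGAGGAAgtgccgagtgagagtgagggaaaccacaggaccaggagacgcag
Pirb, GRCm38.p6 chr7:3720333-3720632, minus strand: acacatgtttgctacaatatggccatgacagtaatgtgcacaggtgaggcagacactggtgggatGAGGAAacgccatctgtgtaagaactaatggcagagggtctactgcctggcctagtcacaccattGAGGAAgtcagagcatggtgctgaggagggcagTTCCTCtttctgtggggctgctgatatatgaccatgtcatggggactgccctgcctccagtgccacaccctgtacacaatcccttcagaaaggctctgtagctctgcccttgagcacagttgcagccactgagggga
Cd300e, GRCm38.p6 chr11:115061990-115062289, minus strand: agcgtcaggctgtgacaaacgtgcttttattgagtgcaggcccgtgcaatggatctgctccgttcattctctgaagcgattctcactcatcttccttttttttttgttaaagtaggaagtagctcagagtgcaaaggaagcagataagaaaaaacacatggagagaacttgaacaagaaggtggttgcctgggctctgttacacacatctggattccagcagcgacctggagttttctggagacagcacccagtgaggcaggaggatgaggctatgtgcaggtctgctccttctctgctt

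In total, 22191774 UMIs in 3185 barcodes were present for WT and 23384895 UMIs in 3020 barcodes for KO. After filtering, 2597 WT and 2514 KO cells were kept, with a median of 5073 and 6564 UMIs per cell. The libraries shared 1 barcode, and 0 among kept cells. Cells were clustered without the 8 genes and their relatives, and 20 of 21 clusters were named from marker genes. The names carry the suffix "-like" because they rest on rebuilt clusters. Resident macrophage-like cells (469 WT and 284 KO) were those of cluster 2 (423 and 46) and cluster 8 (46 and 238), each with all 9 of 9 markers raised, and cluster 8 was led by Retnla, Pf4 and chemokine genes. Inflammatory monocyte-like cells (455 and 372) were those of cluster 3 (392 and 72), cluster 6 (31 and 257) and cluster 17 (32 and 43, led by genes that include Rsad2 and other interferon-induced genes). The name of cluster 17 rests on 6 of 9 markers, without Ccr2, and the cDC1 markers Xcr1, Irf8, Naaa and Batf3 were raised there too. In 4 of these 5 clusters 1 library gave 80% of the cells or more, and a difference between genotypes in these classes cannot be told apart from a difference between clusters without the within-cluster values given below. The other classes were cDC2-like (217 and 489, of which 214 and 369 in cluster 1 and 3 and 120 in cluster 14), cDC1-like (123 and 294, of which 99 and 195 in cluster 5 and 24 and 99 in cluster 13, led by cell cycle genes), neutrophil-like (84 and 276), eosinophil-like (199 and 407), B cell-like (201 and 85), T cell-like (241 and 110), NK cell-like (26 and 41) and stromal or endothelial cell-like (80 and 21). The eosinophil name rests on 3 of 6 markers (Siglecf, Ccr3 and Alox15), with Epx and Prg2 not raised, and on a median of 755 and 970 UMIs per cell. The neutrophil markers Retnlg and Mmp9 were raised in these cells too. B cell, T cell, plasma cell, epithelial and stromal names, which CD11b does not define, were present despite the label.

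In all kept cells, Sirpa had 3412 UMIs in WT and 3869 in KO, Cd300a 1818 and 2653, Pirb 2002 and 2226, Pilra 826 and 1495, Cd300lf 972 and 973, and Sirpb1c 920 and 782. Cd300lb had 143 and 336 UMIs and Cd300e 5 and 63. All 8 genes were thus detected in both libraries, but for Cd300e and Cd300lb the depth allowed only coarse statements. Levels are given as CPM (UMIs per 1000000 UMIs of the class), not divided by transcript length, so each gene was compared between classes only. All intervals are 95% intervals and cover counting error only, since each genotype had 1 library.

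By CPM, granulocyte-like classes held the highest level of most inhibitory receptors. Median depth in WT was 755 UMIs in eosinophil-like, 2303 in neutrophil-like and 10115 in cDC2-like cells. The order is thus one of shares of captured RNA, and UMIs per cell were not ranked. The level of Cd300a was highest in neutrophil-like cells, at 312 CPM in WT (interval 243 to 394) and 237 CPM in KO (207 to 269). In WT the neutrophil interval overlapped that of cDC2-like cells, at 226 CPM, while in KO neutrophil-like cells stood above the next class, inflammatory monocyte-like cells at 178 CPM. Cd300lf reached 575 CPM in WT eosinophil-like cells (472 to 694) and 543 CPM in KO (477 to 615), followed by neutrophil-like cells at 539 and 316 CPM, and in WT the intervals of these classes overlapped. The third class, inflammatory monocyte-like cells, stood at 135 in WT and 46.9 CPM in KO, well outside the granulocyte intervals. Sirpa was highest in eosinophil-like cells, at 718 CPM in WT (602 to 849) and 734 CPM in KO (657 to 817), with no overlap with the next class in either library. In WT the next classes were resident macrophage-like cells at 476 CPM and inflammatory monocyte-like cells at 452 CPM, whose intervals overlapped. Pilra was highest in neutrophil-like cells, at 347.5 CPM in WT (275 to 434) and 404 CPM in KO (365 to 446), and no other class exceeded 94.4 CPM in WT or 98.0 CPM in KO. For Pirb the order of the leading classes was not resolved. Neutrophil-like and inflammatory monocyte-like cells had 285 and 280.2 CPM in WT and 221 and 229.8 CPM in KO, with overlapping intervals.

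The activating receptors did not share a single pattern. Cd300lb was highest in eosinophil-like cells, at 142.5 CPM in WT (93.9 to 207) and 81.3 CPM in KO (57.2 to 112). The next class, neutrophil-like cells, had 26.7 in WT and 60.2 CPM in KO, and the KO interval overlapped that of eosinophil-like cells. Sirpb1c was found in inflammatory monocyte-like cells, at 214 in WT and 159 CPM in KO, and in neutrophil-like cells, at 156 and 161 CPM, with overlapping intervals in both libraries. Eosinophil-like cells held 2 WT and 0 KO UMIs of Sirpb1c. Cd300e was at 15.4 CPM in KO inflammatory monocyte-like cells (11.4 to 20.4) and at 9.18 CPM in KO neutrophil-like cells (4.2 to 17.4), and no WT class held more than 2 UMIs. Among the UMIs of the 8 genes, the 3 activating genes took 16.9% in WT and 18.3% in KO inflammatory monocyte-like cells, 9.19% and 13.3% in neutrophil-like cells, 8.68% and 4.54% in eosinophil-like cells and 7.53% and 7.34% in resident macrophage-like cells. In cDC2-like cells the share was 4.22% and 4.11%, and in cDC1-like cells 3.79% and 2.55%.

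**Figure D1:**
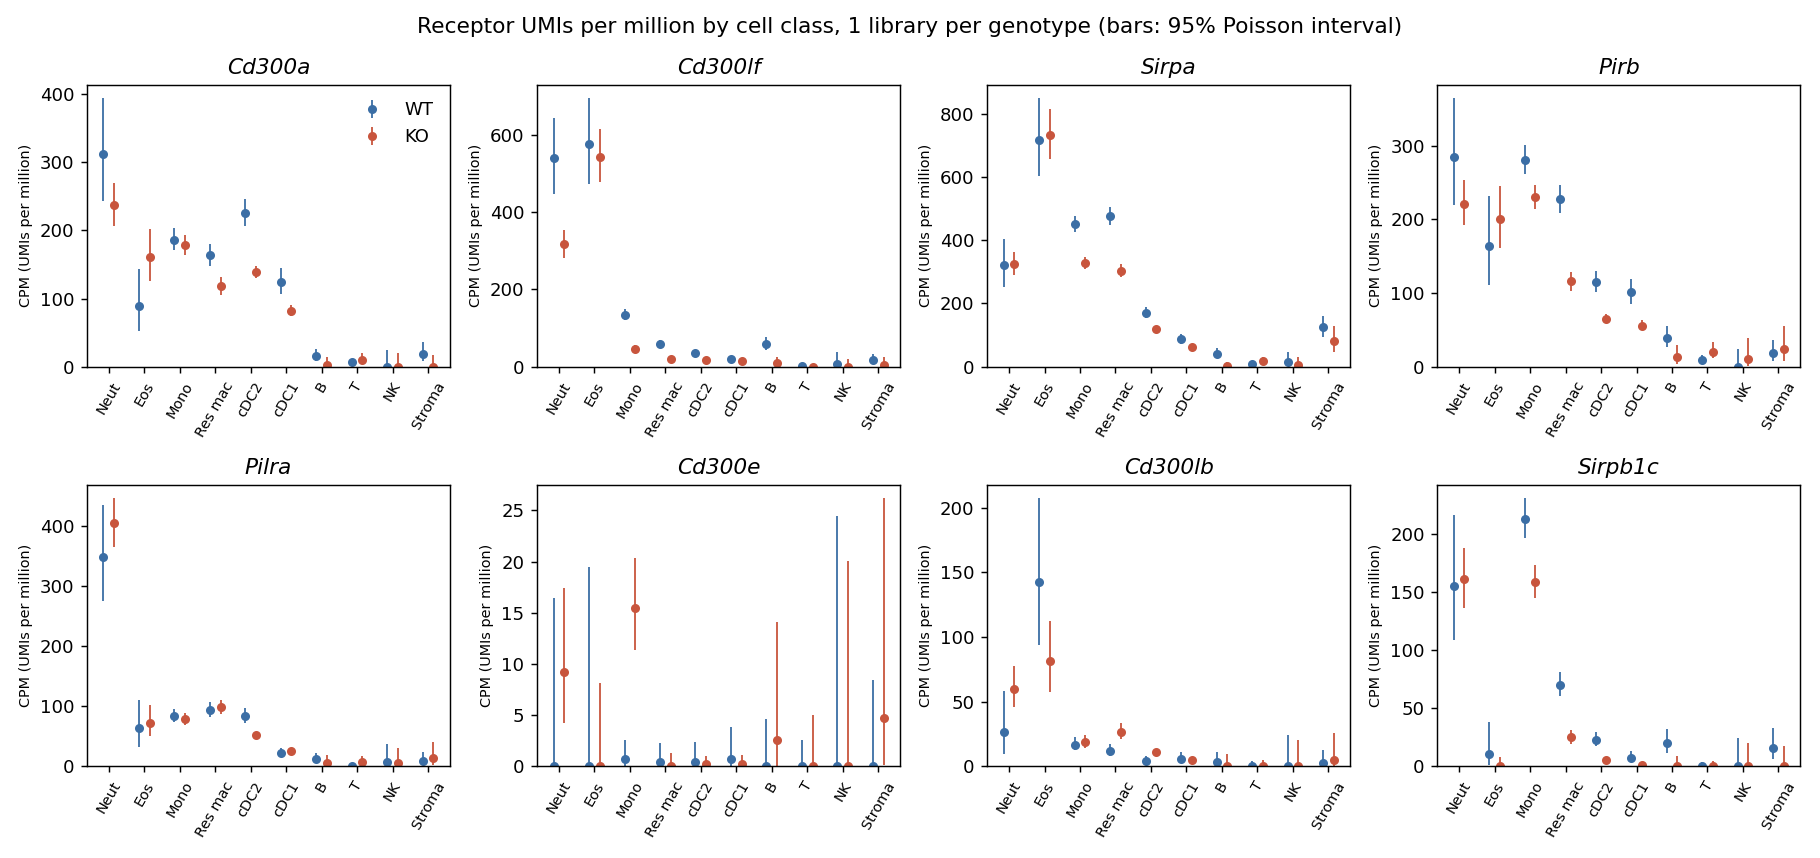
CPM (UMIs per 1000000 UMIs, linear axis starting at 0) of each receptor in 10 cell classes of the WT library (blue) and the KO library (red). Points are class sums and bars are 95% Poisson intervals. Sirpa and Cd300lf peak in eosinophil-like cells at 718 and 575 CPM in WT, Pilra in neutrophil-like cells at 404 CPM in KO, and Cd300e is at 15.4 CPM in KO inflammatory monocyte-like cells and at most 9.18 CPM elsewhere, with wide intervals in the small classes.

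Lymphoid and stromal classes had low but unequal levels. In T cell-like cells no receptor exceeded 9.02 CPM in WT or 20.3 CPM in KO, both values those of Pirb. In B cell-like cells the WT library had 57.7 CPM of Cd300lf, 41.4 CPM of Sirpa and 38.9 CPM of Pirb, while the KO library had 10.2, 2.54 and 12.7 CPM. The 46 WT UMIs of Cd300lf came from 31 of 201 B cell-like cells, so they were not the product of a few cells. For Sirpa and Pirb the top 5 cells held 51.5% and 51.6% of the WT UMIs. Sirpb1c was at 20.1 CPM in WT B cell-like cells, from 16 UMIs in only 5 cells, and had 0 UMIs in KO. The KO to WT log2 value in B cell-like cells was -2.51 for Cd300lf (-4.44 to -1.05), -4.03 for Sirpa and -1.61 for Pirb, each with an interval below 0 and at most 5 KO UMIs. These 3 genes were at least 2-fold lower and 0 were higher, compared with 607 and 107 of 5837 genes tested. The interval of Sirpb1c also lay below 0, but the gene was under the minimum of 20 UMIs. Whether the UMIs in B cell-like cells are transcripts of B cells or of other cells was not tested. Stromal or endothelial cell-like cells had 124 CPM of Sirpa in WT and 80.0 CPM in KO, above the other lymphoid and stromal values in both libraries. Sirpa is known to be expressed outside the myeloid lineage.

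Because median depth differed between libraries, the share of cells with a UMI was computed after each cell had been thinned to 1000 UMIs. A Sirpa UMI was then found in 50.9% of WT and 49.2% of KO eosinophil-like cells, in 39.1% and 31.6% of inflammatory monocyte-like cells and in 35.1% and 31.3% of resident macrophage-like cells. The same share was 0.417% and 1.83% in T cell-like cells. It was 3.09% in WT B cell-like cells and 0 of 84 cells in KO. How much of these values is free RNA was not tested. A Cd300lf UMI was found in 13.8% of WT inflammatory monocyte-like cells (10.7% to 17.3%) and 3.63% of KO cells (1.95% to 6.13%), and these intervals did not overlap. Before thinning, the shares for Cd300lf were 44.6% and 22.9%, at a median depth of 5986 and 9152 UMIs. In resident macrophage-like cells the Cd300lf share was 5.85% in WT (3.75% to 8.65%) and 2.24% in KO (0.826% to 4.81%), and these intervals overlapped. The WT share also overlapped that of WT B cell-like cells, at 4.12% (1.80% to 7.96%). Among WT T cell-like cells 0 of 240 had a Cd300lf UMI (up to 1.525%). Whether the resident macrophage-like share lies above free RNA was not tested. Neutrophil-like cells had Cd300lf in 40.0% of WT and 27.0% of KO cells. Their Pilra share turned with the depth chosen, from 38.8% in WT and 34.5% in KO at 1000 UMIs to 36.4% of 55 WT cells (23.8% to 50.4%) and 57.7% of 248 KO cells (51.3% to 63.9%) at 2000 UMIs. Only 57 of 199 WT and 197 of 407 KO eosinophil-like cells reached 1000 UMIs, so their shares describe the deeper cells of that class. At least 1 of the 8 receptors was detected in 83.8% of WT and 82.0% of KO neutrophil-like cells, in 75.3% and 66.5% of inflammatory monocyte-like cells, in 60.3% and 55.6% of resident macrophage-like cells and in 52.8% and 35.1% of cDC2-like cells, compared with 1.67% and 5.50% of T cell-like, 9.79% and 2.38% of B cell-like and 14.5% and 15.0% of stromal or endothelial cell-like cells.

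**Figure D2:**
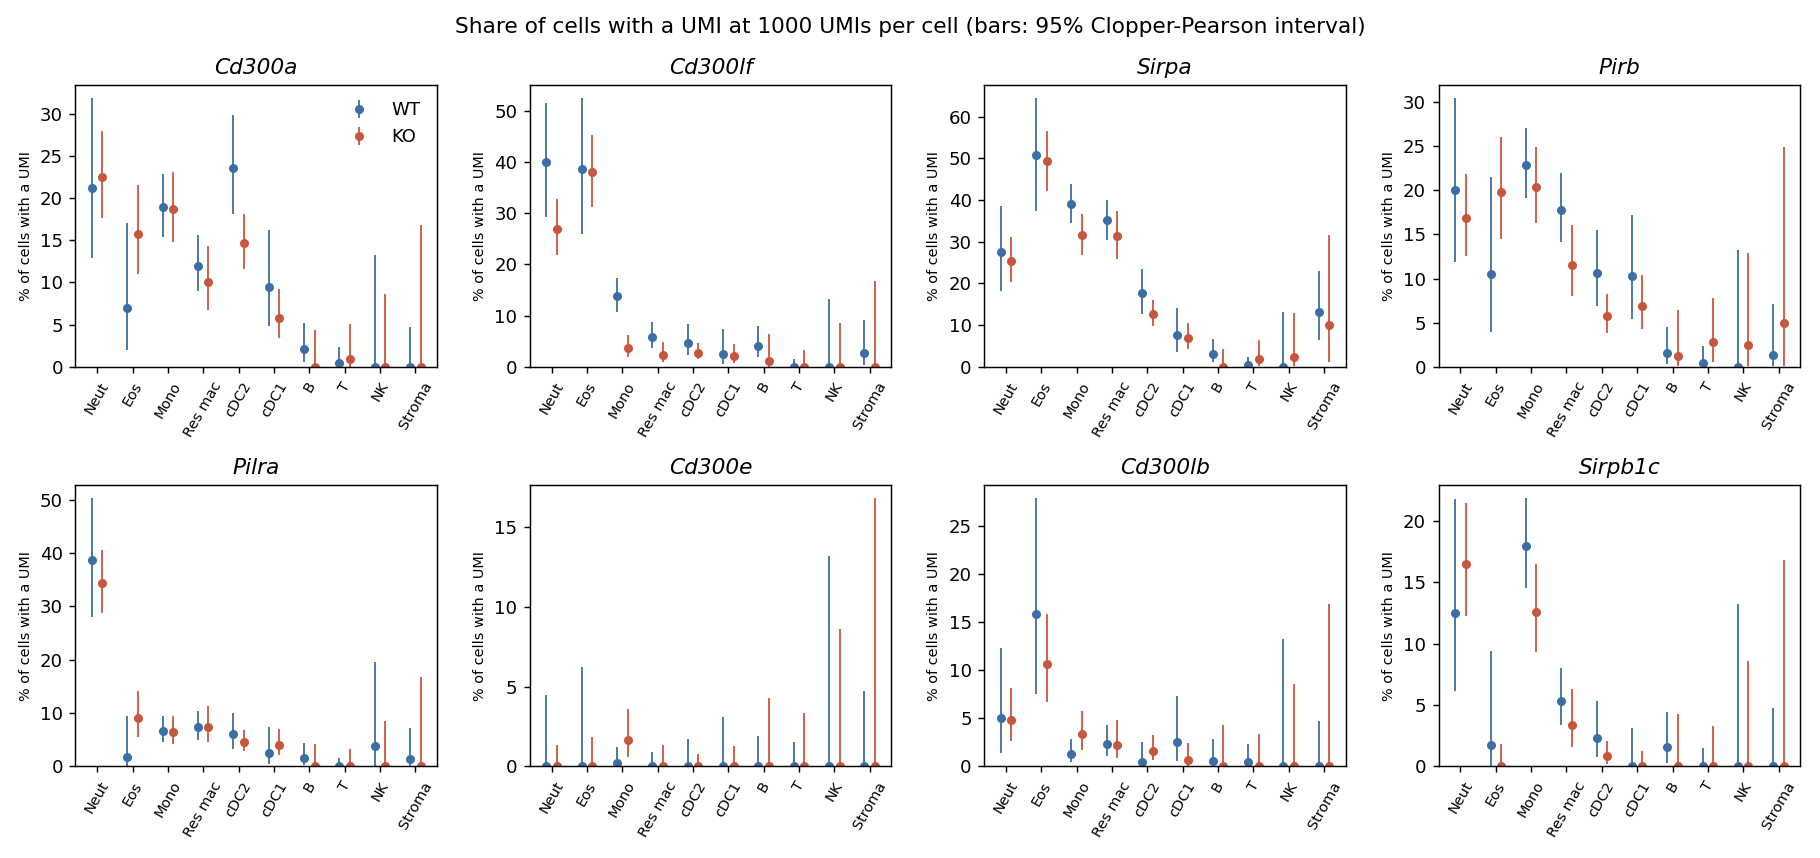
Percent of cells with a UMI of each receptor after thinning to 1000 UMIs per cell, by class, in WT (blue) and KO (red). Bars are 95% Clopper-Pearson intervals, which are wide for NK and stromal cells. The Cd300lf share in inflammatory monocyte-like cells is 13.8% in WT and 3.63% in KO with no overlap, while the shares of Cd300a in that class lie at 18.9% and 18.7%.

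To compare genotypes, the KO to WT ratio of CPM was taken within each class. In resident macrophage-like cells, which carry phagocytosis of dying cells in the gut, all inhibitory receptors but Pilra were lower in KO. Cd300lf was 58.7 in WT and 20.4 CPM in KO, a KO to WT log2 value of -1.53 (-1.99 to -1.07). The WT level was close to the 57.7 CPM of WT B cell-like cells, with overlapping intervals, and Cd300lf was lower in KO there as well. Pirb was 227 and 115.6 CPM, a KO to WT log2 value of -0.97 (-1.18 to -0.77). Sirpa was 476 and 302 CPM, at -0.65 (-0.78 to -0.53), and Cd300a 164 and 118 CPM, at -0.47 (-0.69 to -0.26). Pilra was 94.4 and 98.0 CPM, and its interval included 0 (-0.20 to 0.31). The activating genes went both ways. Sirpb1c was 70.5 and 25.0 CPM, at -1.49 (-1.91 to -1.08), while Cd300lb was 12.2 and 26.8 CPM, at 1.14 (0.51 to 1.81). The Cd300lb UMIs were 30 in WT and 75 in KO, and its share of cells was 2.29% and 2.24% after thinning to 1000 UMIs, and 2.63% (1.14% to 5.12%) and 6.45% (3.73% to 10.3%) after thinning to 2000 UMIs, with overlapping intervals. Cd300e had 1 WT and 0 KO UMIs in this class, which allows no ratio. Of the 7 genes with at least 20 UMIs, 2 were at least 2-fold lower and 1 at least 2-fold higher in KO, compared with 6.76% and 3.86% of all 9278 genes tested. An interval below 0 was found for 5 and above 0 for 1, compared with 26.2% and 11.9% of all genes. Their median log2 ratio was -0.65, compared with -0.18 over all genes.

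The inflammatory monocyte-like class is named after the known precursors of gut macrophages. In it Cd300lf was again the gene with the lowest ratio, at 135 in WT and 46.9 CPM in KO, a KO to WT log2 value of -1.52 (-1.80 to -1.25). Sirpa was 452 and 327 CPM, at -0.46 (-0.58 to -0.35), Sirpb1c 214 and 159 CPM, at -0.43 (-0.60 to -0.25), and Pirb 280.2 and 229.8 CPM, at -0.29 (-0.43 to -0.14). The intervals of Cd300a (186.5 and 178 CPM), Pilra (83.5 and 78.4 CPM) and Cd300lb (16.9 and 18.6 CPM) included 0. Cd300e had 2 UMIs in WT and 49 in KO, a ratio of 21.9 with a log2 interval of 2.52 to 7.54. The 49 KO UMIs came from 19 cells of cluster 6, described below, that were low in the class markers Ly6c2 and Ccr2. This ratio therefore does not describe the class as a whole. The members' median was -0.19, compared with -0.18 over all genes, so the typical receptor was placed like the typical gene in these cells. One of 8 was at least 2-fold lower (Cd300lf) and 1 at least 2-fold higher (Cd300e), compared with 7.03% and 2.44% of 8947 genes. Intervals lay below 0 for 4 and above 0 for 1, compared with 27.3% and 12.1%. Since the median of all genes lay below 0 in 5 of the 6 classes, by 0.11 to 0.21, each ratio may also be read against that median, and the Pirb ratio in inflammatory monocyte-like cells then shrank to -0.10.

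In cDC2-like cells, 6 of the 7 genes with at least 20 UMIs had an interval below 0, compared with 32.0% of all genes tested, and 1 above 0, compared with 11.1%. Sirpb1c was 23.0 in WT and 5.74 CPM in KO, at -2.0 (-2.62 to -1.39), from 53 and 42 UMIs. Cd300lf was 34.2 and 16.3 CPM, at -1.07 (-1.50 to -0.64). The WT levels of these genes were close to or below those of WT B cell-like cells, at 20.1 and 57.7 CPM, which were lower in KO too, and the part of free RNA in these values was not tested. Pirb was 115 and 64.8 CPM, at -0.83 (-1.05 to -0.61). Cd300a (226 and 138.5 CPM, at -0.71), Pilra (83.6 and 52.5 CPM, at -0.67) and Sirpa (171 and 119.9 CPM, at -0.51) were lower in KO as well. Cd300lb was higher, at 4.33 and 10.8 CPM, a KO to WT log2 value of 1.32 (0.36 to 2.43) from 10 and 79 UMIs. Of the 79 KO UMIs, 43 came from cluster 14, which was 97.6% KO cells. Within cluster 1 Cd300lb was 3.98 and 6.57 CPM, with an interval that included 0 (-0.36 to 1.96), while the other 6 genes had intervals below 0 there as well. The share of all genes with an interval below 0 was not counted within cluster 1, where the median of all genes was -0.21. In the whole class, at least 2-fold lower were 2 of 7 and higher 1 of 7, compared with 6.71% and 3.44% of 9655 genes. The members' median was -0.70 against -0.21. In cDC1-like cells, which are known to carry little Sirpa, the level of Sirpa was 86.3 in WT and 62.2 CPM in KO. Of 6 genes with at least 20 UMIs, Pirb (100.9 and 55.9 CPM, at -0.85), Cd300a (124.6 and 82.0 CPM, at -0.60) and Sirpa (at -0.47) had intervals below 0 and none above, compared with 18.1% and 8.51% of all genes, and 0 were 2-fold lower or higher, compared with 2.54% and 3.05% of 9594 genes. These 3 had intervals below 0 within cluster 5 too, while in cluster 13 all 3 included 0 (Pirb -0.41, Cd300a -0.31, Sirpa 0.18) and Pilra was above 0 (2.19, 0.58 to 4.5) from 3 WT UMIs. In the whole class Sirpb1c was under the minimum of 20 UMIs, with 11 and 6 UMIs. Under other clusterings and filters the sign in cDC1-like cells was kept in 5 of 9 alternatives for Sirpa and 7 of 9 for Cd300a.

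Fewer intervals excluded 0 in granulocyte-like cells, which also held fewer UMIs. In neutrophil-like cells only Cd300lf had an interval below 0, at 539 in WT and 316 CPM in KO, a KO to WT log2 value of -0.77 (-1.08 to -0.45), and 0 of 7 genes had one above 0, compared with 17.1% and 9.11% of all genes. Sirpa (321 and 326 CPM), Sirpb1c (156 and 161 CPM) and Pilra (347.5 and 404 CPM) had intervals that included 0. Cd300lb was 26.7 and 60.2 CPM from 6 and 59 UMIs, at 1.17 (-0.04 to 2.67), the 1 gene of 7 past 2-fold, compared with 12.5% of 4346 genes lower and 6.70% higher. In eosinophil-like cells Cd300lf (575 and 543 CPM) and Sirpa (718 and 734 CPM) had intervals around 0, within -0.42 and 0.33. Cd300a was higher in KO there, at 89.7 and 160.4 CPM, 0.84 (0.06 to 1.69), and Cd300lb lower, at 142.5 and 81.3 CPM, -0.81 (-1.57 to -0.04), with 17 and 27 WT UMIs behind them. These were 1 gene above and 1 below 0 of 6, compared with 11.3% and 9.64% of all genes. None of 6 genes reached 2-fold in eosinophil-like cells, compared with 5.63% lower and 7.84% higher of 3889 genes.

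**Figure D3:**
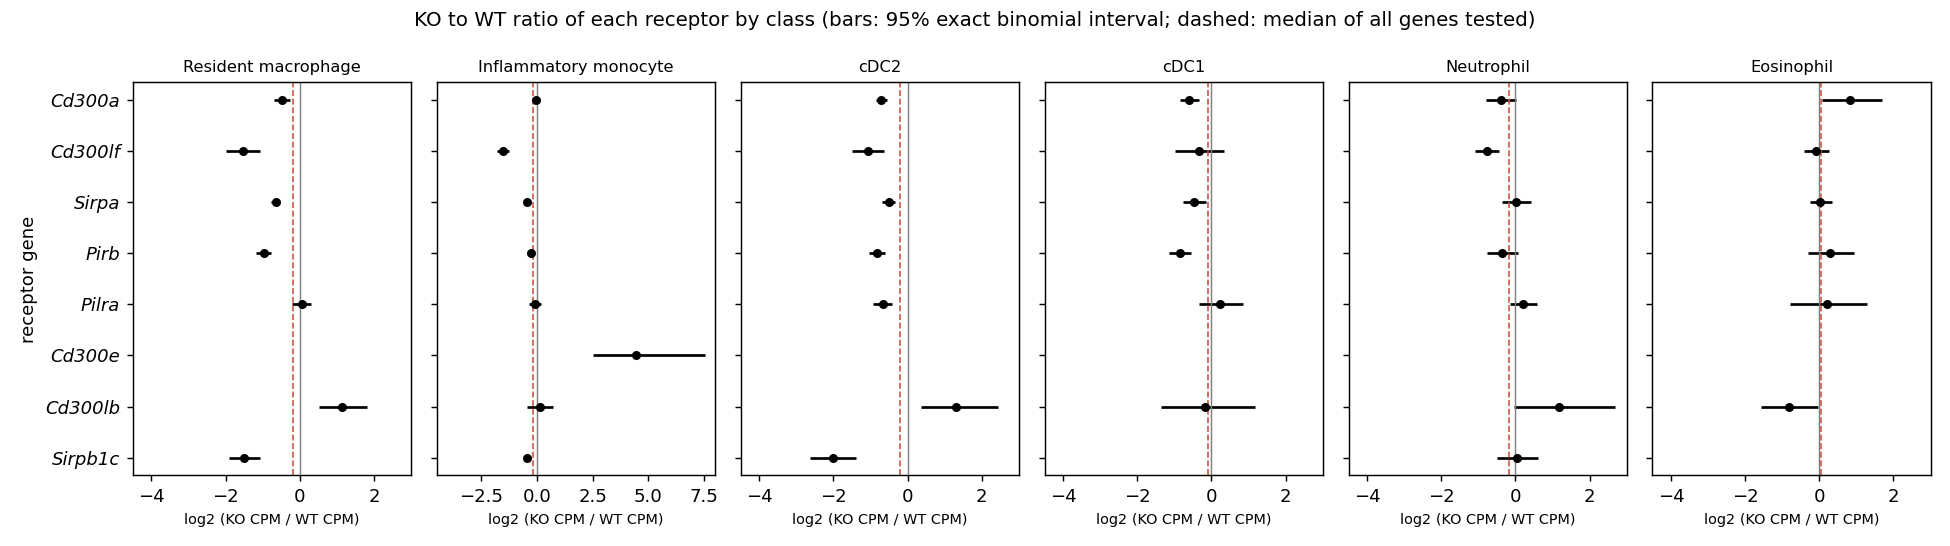
Log2 of the KO to WT ratio of CPM for each receptor with at least 20 UMIs in 6 classes. Points are ratios, bars are 95% exact binomial intervals, the grey line marks 0 and the dashed line the median of all genes tested, and the axis of the inflammatory monocyte panel is wider. Cd300lf lies at -1.53 and -1.52 in the left panels, Cd300e at 4.45 in the second, and the eosinophil panel has its points on both sides of 0. The KO UMIs of Cd300e in the inflammatory monocyte panel came from 19 cells of cluster 6.

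The ratios were then taken within single clusters, since the clusters differed in their share of each library. The share of all genes with an interval below 0 was not counted within clusters. The median of all genes was -0.19 in cluster 2 and -0.12 in cluster 8. In cluster 2, which held most WT resident macrophage-like cells, Sirpa (-0.53), Pirb (-1.16) and Sirpb1c (-1.91) had intervals below 0. In cluster 8, which held most KO resident macrophage-like cells, Sirpa (-0.48), Pirb (-1.24), Sirpb1c (-1.13) and Cd300lf (-2.29) did. The lower Sirpa, Pirb and Sirpb1c were thus found in both clusters, each on its own. For Sirpb1c this rests on few UMIs, with 7 KO UMIs from 4 cells in cluster 2 and 15 WT UMIs from 9 cells in cluster 8. Cd300a, lower in the whole class, had intervals that included 0 in cluster 2 (-0.42, -0.89 to 0.03) and in cluster 8 (-0.09, -0.62 to 0.47). Cd300lf in cluster 2 was 54.9 in WT and 32.9 CPM in KO, with an interval that included 0 (-1.73 to 0.12) and only 12 KO UMIs. Cd300lb, higher in KO in the whole class, was 11.8 and 10.98 CPM in cluster 2 and 15.1 and 29.2 CPM in cluster 8, with intervals that included 0 in both. Pilra was higher in KO within cluster 8, at 52.8 and 99.2 CPM (0.91, interval 0.13 to 1.80), and not in cluster 2, at 99.4 and 90.5 CPM.

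Among the monocyte clusters, Cd300lf was 140.4 in WT and 54.8 CPM in KO in cluster 3, at -1.36, and 105 and 23.6 CPM in cluster 6, at -2.16. In cluster 17, the smallest, it was higher in KO, at 110.5 and 192 CPM (0.80, interval 0.18 to 1.45). Sirpa was lower in clusters 3 (-0.69) and 6 (-0.42), and had an interval that included 0 in cluster 17 (0.16). Cluster 17 also had Cd300a at 134 and 57.4 CPM (-1.22) and Pirb at 258 and 155 CPM (-0.73). Cd300a, whose interval included 0 in the whole class, had one just below 0 in cluster 6 (-0.43, -0.83 to -0.007) and one that included 0 in cluster 3 (-0.30). Pirb, lower in the whole class, had intervals that included 0 in cluster 3 (-0.27, -0.57 to 0.02) and cluster 6 (-0.18, -0.58 to 0.24). Sirpb1c, also lower in the whole class, had an interval below 0 in cluster 3 (-0.37) and intervals that included 0 in cluster 6 (-0.31, -0.76 to 0.18) and cluster 17 (-0.60, -1.52 to 0.30). Pilra was 33.4 and 86.1 CPM in cluster 6 (1.36, interval 0.29 to 2.70), from 7 WT UMIs. Cd300lf, the gene with the lowest ratio of the class, was thus lower in KO in clusters 3 and 6 and higher in cluster 17.

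**Figure D4:**
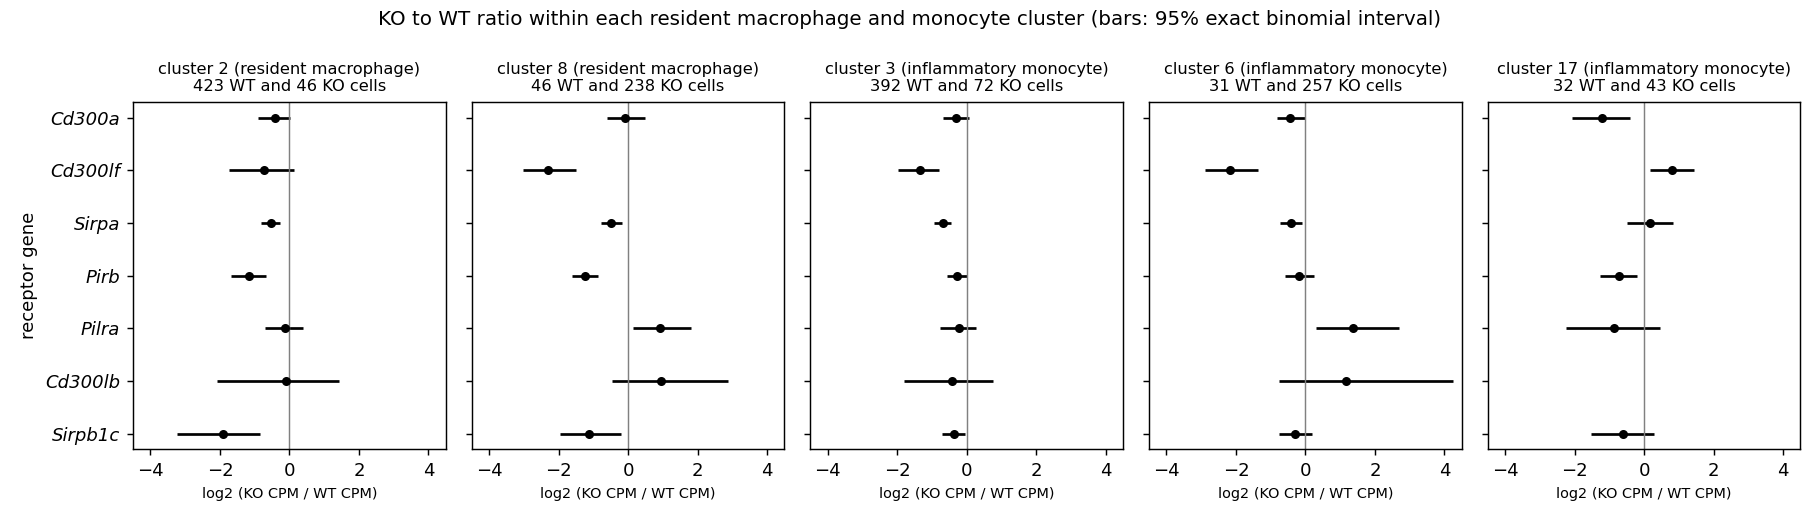
Log2 of the KO to WT ratio of CPM within the 2 resident macrophage-like and 3 inflammatory monocyte-like clusters, for receptors with at least 20 UMIs, with the cells of each library above each panel. Bars are 95% exact binomial intervals. Pirb lies at -1.16 and -1.24 in both resident macrophage panels, and Cd300lf lies at -2.16 in cluster 6 but at 0.80 in cluster 17.

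Cd300e was concentrated in few cells. Of its 63 KO UMIs, 49 (77.8%) came from 19 of the 257 KO cells of cluster 6, 9 from 4 KO neutrophil-like cells, and the WT library held 5 UMIs in 5 cells. In inflammatory monocyte-like cells the share of cells with a Cd300e UMI was 0.440% in WT (0.0533% to 1.58%) and 5.11% in KO (3.10% to 7.86%). Within cluster 6, 0 of 31 WT cells had a UMI, which allows a share of up to 9.68% (the limit of 3 counts), above the 7.39% of KO cells, so a lower share of cells was not shown for WT with so few cells. Counted as UMIs, the cluster had 0 in WT and 49 in KO (20.98 CPM), a ratio with a log2 interval that starts at 0.20 and has no upper end. That interval takes each UMI as independent, while the 49 came from 19 cells. Thinned to 1000 UMIs, 1 of 450 WT and 6 of 358 KO inflammatory monocyte-like cells kept a Cd300e UMI.

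Within the KO cells of cluster 6, those with a Cd300e UMI had the transcripts of patrolling (non-classical) monocytes, the Ly6C-low cells known to survey vessel walls. All 10 genes of a patrolling list had an interval above 0 for the 19 cells with against the 238 cells without, compared with 9.63% of the 6616 other genes tested in this split. Spn, which encodes CD43, was 511.5 CPM with and 73.5 CPM without, Eno3 298 and 21.6 CPM, and Pglyrp1 665 and 70.8 CPM. Ace was 639 and 152 CPM, Treml4 529 and 118 CPM, and Nr4a1, a nuclear receptor needed by patrolling monocytes, 2285 and 388 CPM. Genes of inflammatory monocytes were the reverse, with all 9 markers below 0, compared with 7.33% of genes. Ly6c2 had 1 UMI in the 19 cells, or 8.53 CPM, against 1172 CPM without, Ccr2 34.1 against 569 CPM, and Fn1 17.1 against 936 CPM. Among the resident macrophage markers, Cx3cr1 (0.85), Csf1r (0.67) and Apoe (0.39) were above 0, while the complement genes C1qa, C1qb and C1qc had 0 UMIs in the 19 cells and at most 4.96 CPM in the others, with intervals that included 0. Among the other receptors, Sirpa was 665 CPM with and 345 CPM without (0.95, interval 0.59 to 1.29) and Pilra 222 and 78.9 CPM (1.49, 0.84 to 2.09), while Pirb was 128 and 246 CPM (-0.94, -1.79 to -0.21). Cd300a was 213 and 201.5 CPM, with an interval that included 0 (-0.56 to 0.66). Cells with a UMI were shallower, with a median of 6080 UMIs compared with 9868.

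By a rule set after these values were seen, cells with a UMI of at least 5 of the 10 patrolling genes and none of Ly6c2 or Ccr2 were counted. There were 36 among the 372 KO inflammatory monocyte-like cells (9.68%, interval 6.87% to 13.2%) and 0 among the 455 WT cells, which allows a share of up to 0.659% by the limit of 3 counts (0.807% by the Clopper-Pearson interval). KO cells of the class were deeper than WT cells, and the 36 had a median of 5458 UMIs. What part depth had in the split between the libraries was not tested. After thinning there were 22 of 358 KO (6.15%) and 0 of 450 WT cells (up to 0.667%) at 1000 UMIs, and 32 of 338 KO (9.47%) and 0 of 412 WT cells (up to 0.728%) at 2000 UMIs. All 36 lay in cluster 6, where they were 14.01% of KO cells (10.0% to 18.9%), and 0 of its 31 WT cells allow up to 9.68% by the limit of 3 counts (11.2% by the interval). Of the 36, 16 (44.4%) had a Cd300e UMI. In the whole class the patrolling list had 10 of 10 genes with an interval above 0, against the 12.1% of all genes given above, with a median log2 ratio of 1.84 compared with -0.18 over all genes. In KO neutrophil-like cells 5 of 8 genes of the list had an interval above 0 and 1 below, compared with 9.11% and 17.1% of all genes. In resident macrophage-like cells 2 of 9 genes were above and 3 below, compared with 11.9% and 26.2% of all genes. In cDC2-like cells 2 of 8 were above and 2 below (11.1% and 32.0% of all genes). In cDC1-like cells 0 of 7 were above and 1 below (8.51% and 18.1%). In eosinophil-like cells 1 of 5 was above and 1 below (11.3% and 9.64%). Fewer or more cells of a kind in a library and less or more RNA per cell are separate quantities, and with pooled mice and 1 library for each genotype neither can be set apart from variation between pools.

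**Figure D5:**
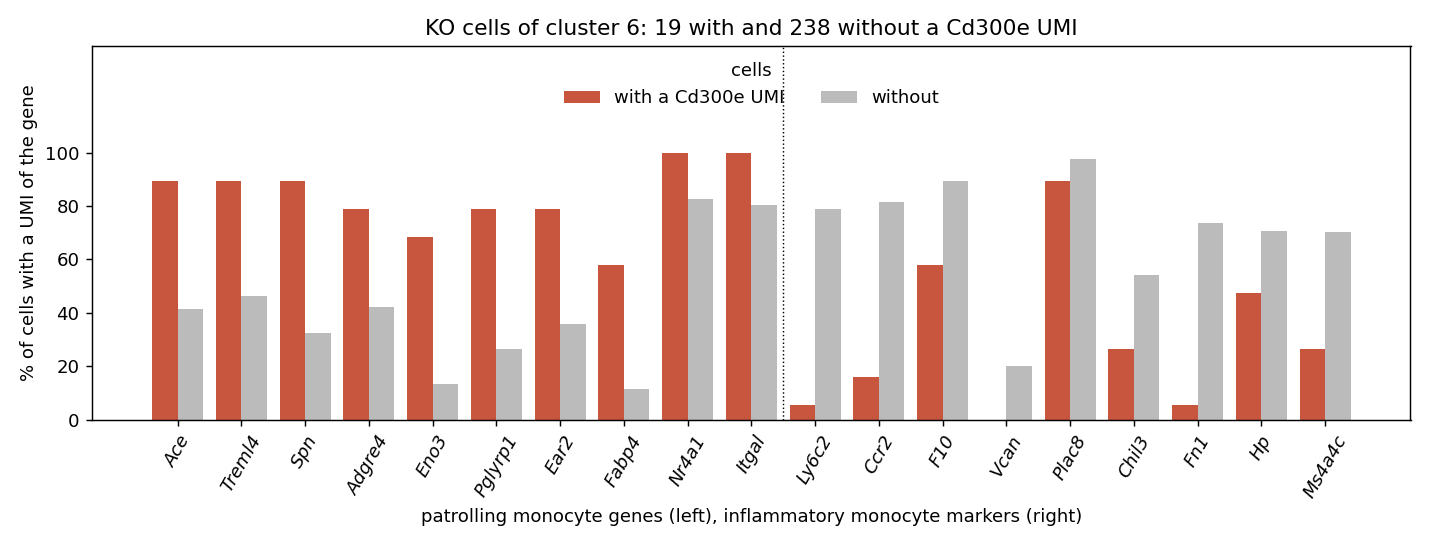
Percent of KO cells of cluster 6 with a UMI of each patrolling monocyte gene (left of the dotted line) and each inflammatory monocyte marker (right), in the 19 cells with a Cd300e UMI (red) and the 238 cells without (grey). Ace, Treml4 and Spn were each found in 89.5% of the cells with a Cd300e UMI, and Ly6c2 in 5.26% of them compared with 79.0% of the others.

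Relatives of the receptors and the proteins they work with were read from fixed lists, of which 6 of 58 genes were not used here. The close SIRP relatives were lower in KO in some classes. Sirpb1a was 22.3 in WT and 8.59 CPM in KO resident macrophage-like cells (-1.38) and Sirpb1b 34.0 and 8.23 CPM (-2.05), although Sirpb1b and Sirpb1c share part of their 3' ends. In inflammatory monocyte-like cells Sirpb1a was 34.9 and 20.8 CPM (-0.75), while Sirpb1b was 66.3 and 61.4 CPM, with an interval that included 0 there (-0.41 to 0.19) and in neutrophil-like cells (-0.37 to 0.59). Other CD300 genes went both ways. Cd300lg had 1 UMI in WT and 26 UMIs in KO resident macrophage-like cells, and was 6.70 and 24.9 CPM in inflammatory monocyte-like (1.89) and 9.10 and 19.7 CPM in cDC2-like cells (1.11). Cd300c was 6.50 and 25.0 CPM in cDC2-like cells (1.95, 1.19 to 2.81) from 15 and 183 UMIs, with the share of cluster 14 in that class given above. Cd300c2 was 241 and 196 CPM in resident macrophage-like cells (-0.29), and Cd300ld 89.5 and 75.1 CPM with an interval that included 0. The counts of list genes that follow are to be read against the share of all genes with such an interval in the same class, given above. Of the PIR, LILR and PILR genes with at least 20 UMIs, 0 had an interval below 0 and 3 above, among 7 in resident macrophage-like, 7 in inflammatory monocyte-like and 6 in cDC2-like cells. Lilrb4a, which encodes an inhibitory receptor, was higher in KO resident macrophage-like (59.9 and 95.2 CPM, 0.67), inflammatory monocyte-like (88.1 and 149.5 CPM, 0.76), cDC2-like (43.8 and 86.1 CPM, 0.98) and neutrophil-like cells (174 and 355 CPM, 1.03). Its neighbour Lilr4b was 482 and 854.5 CPM in resident macrophage-like cells (0.83). Not all inhibitory receptors on the lists were therefore lower in KO.

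Of 6 other inhibitory receptors, 4 had an interval below 0 and 2 above in resident macrophage-like cells, where 26.2% and 11.9% of all genes did, and 4 had one below and 0 above in inflammatory monocyte-like cells (27.3% and 12.1%). Lair1, a collagen receptor, was 289 and 122 CPM in resident macrophage-like (-1.24), 137.5 and 57.0 CPM in inflammatory monocyte-like (-1.27) and 32.5 and 6.70 CPM in cDC2-like cells (-2.28). The 2 above 0 in resident macrophage-like cells were Cd33, at 71.7 and 99.1 CPM (0.47), and Cd200r1, at 5.27 and 11.8 CPM (1.17, 0.20 to 2.22) from 13 and 33 UMIs. In resident macrophage-like cells Cd200r1 and Cd300lg are under the minimum of 50 UMIs for named genes, and both were named after their values were seen. Of the 6 phosphatases and kinases that inhibitory receptors use, 5 had an interval below 0 in resident macrophage-like and 5 in cDC2-like cells, 2 in inflammatory monocyte-like and 0 in neutrophil-like cells, compared with 26.2%, 32.0%, 27.3% and 17.1% of all genes in these classes. Ptpn6, which encodes SHP-1, was 128 and 64.1 CPM in resident macrophage-like cells (-1.0), and Inpp5d, which encodes the lipid phosphatase SHIP-1, 196 and 100.6 CPM (-0.96). Ptpn11, which encodes SHP-2, was 40.9 and 47.6 CPM with an interval that included 0.

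The adaptor Tyrobp, through which the activating receptors signal, was 1099 in WT and 966 CPM in KO resident macrophage-like cells (-0.19), 1513 and 2383 CPM in inflammatory monocyte-like cells (0.66) and 2753 and 4997 CPM in neutrophil-like cells (0.86). All 4 adaptor genes had an interval above 0 in neutrophil-like cells, as had 9.11% of all genes, among them Fcer1g at 962 and 1969 CPM (1.03). In resident macrophage-like cells 3 of the 4 were below 0 and 0 above, compared with 26.2% and 11.9% of all genes. In inflammatory monocyte-like cells 1 was below and 2 above (27.3% and 12.1%). Among the ligands, Cd47, bound by the Sirpa product, was 275 and 238 CPM in resident macrophage-like (-0.21) and 350 and 414 CPM in inflammatory monocyte-like cells (0.24). B2m, the shared chain of MHC class I bound by the Pirb product, was 4451 and 1989 CPM in resident macrophage-like cells (-1.16) and H2-K1 2299 and 1325 CPM (-0.79), while H2-D1 was 1370.0 and 1315 CPM with an interval that included 0.

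The genes most like 7 of the receptors were found by the correlation of log2(CPM + 10) over 20 class by library sums (10 classes), a description with no test, since the sums share libraries and depth. Cd300a was most like Fgr, which encodes a Src family kinase, at r = 0.958. Sirpa was most like Creg1 (0.954), Pilra most like Ninj1 (0.952), and Cd300lf most like Cyp4f18 (0.945). Of the activating genes, Sirpb1c was most like Tlr2 (0.953), Cd300lb most like Alox5, the 5-lipoxygenase of granulocytes (0.949), and Cd300e most like Ace (0.820). Over the same sums Cd300a and Pirb correlated at 0.934, Cd300lf and Cd300lb at 0.881, and Cd300e with Cd300lf at 0.105, the lowest value among the pairs.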

How the data were processed

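Colon cells of 1 WT and 1 KO pool were measured. The authors deposited raw UMI counts for each gene and barcode, made with Cell Ranger 3.0.2 (file headers), with mm10 and Seurat 4 in the processing notes. The study states more cells for each genotype than the barcodes used here.

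Cells with 200 to 6000 genes and at most 15% mitochondrial UMIs were kept, as in the study, which clustered with DESC. Here counts were normalised to 10000 and log-transformed, and 2000 variable genes, 30 components, 15 neighbours and Leiden clustering at resolution 1 were used (scanpy 1.11.5, leidenalg 0.10.2, scikit-learn 1.9.0, Python 3.11.15). The receptor genes and their relatives were left out of clustering. A class needed at least 3 markers raised 2-fold (prior of 10 CPM, 10% of cells). Levels are given for the 10 classes that held 20 or more cells of both libraries. CPM has exact Poisson, ratios exact conditional binomial and shares exact Clopper-Pearson intervals, checked on simulated counts. Medians use genes with at least 20 UMIs (prior of 1 CPM), and called means 2-fold or, where said, an interval that excludes 0. Scrublet called 0 WT and 4 KO cells (0.159%), too few for the calls to be relied on, and doublets stayed in. Named genes were the members, the genes of fixed lists with at least 50 UMIs, and the 3 most alike genes. Members and lists were chosen with earlier results of these data known. With 1 library for each genotype no test was possible. Some items are not reported here.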

Additional observations from a re-analysis of the deposited data

Results flagged for a closer look

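The KO to WT ratio pointed in opposite directions in 2 classes for 2 genes, and the intervals excluded 0 in both classes. Cd300a was higher in KO eosinophil-like cells (0.84) and lower in KO cDC2-like cells (-0.71), a difference of 1.55 on the log2 scale. Cd300lb was lower in KO eosinophil-like cells (-0.81) and higher in KO cDC2-like cells (1.32), a difference of 2.13. Of the 79 KO UMIs of Cd300lb in cDC2-like cells, 43 came from cluster 14 (3 WT and 120 KO cells), and within cluster 1 of the same class its interval included 0 (0.72, -0.36 to 1.96). Cd300a was lower in KO within cluster 1 as well (-0.63). These differences between classes were not tested, because each genotype had 1 library. The eosinophil-like values rest on 17 WT and 73 KO UMIs of Cd300a and 27 and 37 UMIs of Cd300lb.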

How the results depend on the processing

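In resident macrophage-like cells the receptors' median log2 ratio was -0.65, from -0.69 to -0.48 over 10 alternatives, the highest being the ratio relative to the median of all genes. In inflammatory monocyte-like cells it was -0.19, from -0.33 to -0.0048, the latter again relative to all genes. Genes with an interval below 0 numbered 5 in resident macrophage-like cells and 3 within cluster 2. In inflammatory monocyte-like cells they numbered 4, and 2 with 4000 variable genes, 2 without the top 3% of Scrublet scores and 2 within cluster 17 (the within-cluster values were chosen after seeing the data, and the share of all genes was not counted within clusters). In the first 2 of these settings and at resolution 0.5, the class held 50 to 66 WT cells. The resident macrophage-like class then held 804 to 851 WT cells, compared with 469 in the main setting. The range of its median thus includes settings in which that class was wider, and does not describe the same cells throughout. Within single clusters, among genes whose interval in the class excluded 0 and with at least 20 UMIs in the cluster, the sign turned for Cd300lb in cluster 2 (-0.10), for Cd300lf (0.80) and Sirpa (0.16) in cluster 17 and for Sirpa in cDC1-like cluster 13 (0.18). Among those whose class interval included 0, it turned for Pilra in clusters 2 (-0.13), 5 (-0.32) and 6 (1.36), Cd300lb in cluster 3 (-0.41) and Cd300lf in cluster 13 (1.04). In cDC1-like cells Cd300a turned under the stricter filter (0.16) and with 4000 variable genes (0.19). Sirpa turned there under the stricter filter (0.66), at resolution 0.5 (0.18), with 4000 variable genes (0.096) and with each library clustered alone (0.50). The cause was not tested. Cd300lf, Sirpa, Pirb and Sirpb1c kept their direction in both classes in all 9 alternatives to their ratio. Clustered alone, the WT library had no eosinophil-like cluster, so that setting gave no value there. No paired analysis was possible because each genotype had 1 library and no test was run. Depth limits Cd300e and Cd300lb most.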
